A study of Homo sapiens with 8 samples.

Results

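The genes described here encode the proteasome, its assembly chaperones, its activators and NFE2L1, a transcription factor of proteasome genes, measured as RNA in IMR32 cells. Members were taken by symbol among the protein-coding genes: the PSMA, PSMB, PSMC and PSMD genes, PSME1 to PSME4, PSMF1, PSMG1 to PSMG4, POMP and NFE2L1. This gave 50 genes of 58787 gene identifiers, on 18 chromosomes, with 8 members each on chromosomes 14 and 17. By role they were 8 alpha-ring genes, 7 constitutive beta-ring genes, 4 immune or thymic beta-ring genes, 6 ATPase genes, 3 other base genes, 8 lid genes, 3 base chaperones, 5 core chaperones, 5 activators or inhibitors, and NFE2L1.

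IMR32 is an established human neuroblastoma line with amplified MYCN, labelled here as wild type, and the study used it as a model of MYCN-driven tumours treated with a blocker of the RNA helicase eIF4A. The treated group (4 libraries) received CR31B, a rocaglate that clamps eIF4A onto RNA, at its IC50, and the control group (4 libraries) received 0.1% DMSO. Both were collected at 6 h after a change of medium. Whether the CR31B medium held the same amount of DMSO is not given in the sources used here, and a single cell line was used. Replicate 1 of each group was sequenced paired-end and replicates 2 to 4 single-end. The design text calls the replicates biological without saying whether cultures were started separately, so p-values measure the spread between these libraries.

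The libraries held between 43687828 and 64715535 counts each. The replicate 1 pair stood apart: on the first principal component, which held 51.8% of the variance, the library labelled CR31B replicate 1 scored -26.4 beside the single-end DMSO libraries (-29.4 to -25.8), and the library labelled DMSO replicate 1 scored 32.0 beside the single-end CR31B libraries (18.98 to 28.96). Results are therefore given for the 6 single-end libraries, beside all 8 libraries as labelled, and no label was changed. Of 10 markers of adrenergic neuroblasts, 10 were measured, with a summed level of 2937 to 4328 CPM (reads of a gene relative to library size, TMM-normalised). Markers of other cell types were low: 4 epithelial markers summed to 0 to 0.233 CPM with KRT5 and KRT14 at 0 counts, 6 immune markers to 0.362 to 1.11 CPM with CD3E and CD68 at 0 counts (CD68 shares 97.6% of its coding bases with another gene on the same strand, so its 0 says little), 4 endothelial markers to 0.982 to 2.89 CPM, and 7 mesenchymal markers to 48.4 to 88.4 CPM with PRRX1 at 0 counts. In the single-end libraries the adrenergic sum was 4169 ± 181 CPM with CR31B and 2985 ± 40.4 CPM with DMSO (SD, n = 3). The list went both ways, with 6 of 10 genes higher, led by GATA3 (log2 1.78) and HAND2 (0.97), and 3 lower (DBH -0.98, CHGA -0.38, PHOX2A -0.32). Its part in the results below was not tested. In bulk RNA, fewer cells of a kind and less RNA per cell cannot be told apart.

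The proteasome degrades proteins tagged with ubiquitin. Its barrel-shaped core is built from outer rings of alpha subunits, which gate the entrance, and inner rings of beta subunits, of which PSMB5, PSMB6 and PSMB7 carry the protease sites. A regulatory particle caps the core: a base with a ring of ATPases unfolds substrates and pushes them in, and a lid removes the ubiquitin chain. When proteasome capacity is short, NFE2L1 is released from the endoplasmic reticulum, cut and moved to the nucleus, where it raises transcription of the subunit genes together, a response known as the proteasome bounce-back.

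Most genes of the constitutive particle were lower in the single-end libraries labelled CR31B, while NFE2L1 and the activators PSME3 and PSME4 were higher. Of the 50 members, 44 passed the filter on low counts. Of these, 5 rose and 25 fell (edgeR quasi-likelihood test, Benjamini-Hochberg adjusted p under 0.05 over 16696 genes), and 14 did not pass the test. Among all tested genes 41.3% were called, 23.8% higher and 17.6% lower. The median log2 difference (CR31B minus DMSO) was -0.20 over the tested members and -0.01 over all tested genes, and the median size of the difference was the same, 0.24, in both. The members' values did not overlap between the groups for 28 genes lower and 6 higher with CR31B, against 24.4% and 27.7% of all tested genes. Only NFE2L1 and PSMA6 were past 1.5-fold among the 30 called members. With all 8 libraries as labelled, 0 of 44 members were called by edgeR or DESeq2 and 0 had an unadjusted p under 0.05, beside 0% of 16518 genes called and 1.24% with an unadjusted p under 0.05. With the replicate number as a block, 5 members rose and 27 fell, beside 51.1% of all tested genes called. Upper quartile scaling gave 4 members higher and 32 lower, and total count scaling 4 and 31. Of all 16696 tested genes, upper quartile scaling called 3010 higher and 4509 lower, and total count scaling 3181 and 4194. Under those scalings the share of higher genes among all calls moved from 57.5% to 40.0% and 43.1%.

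**Figure D1:**
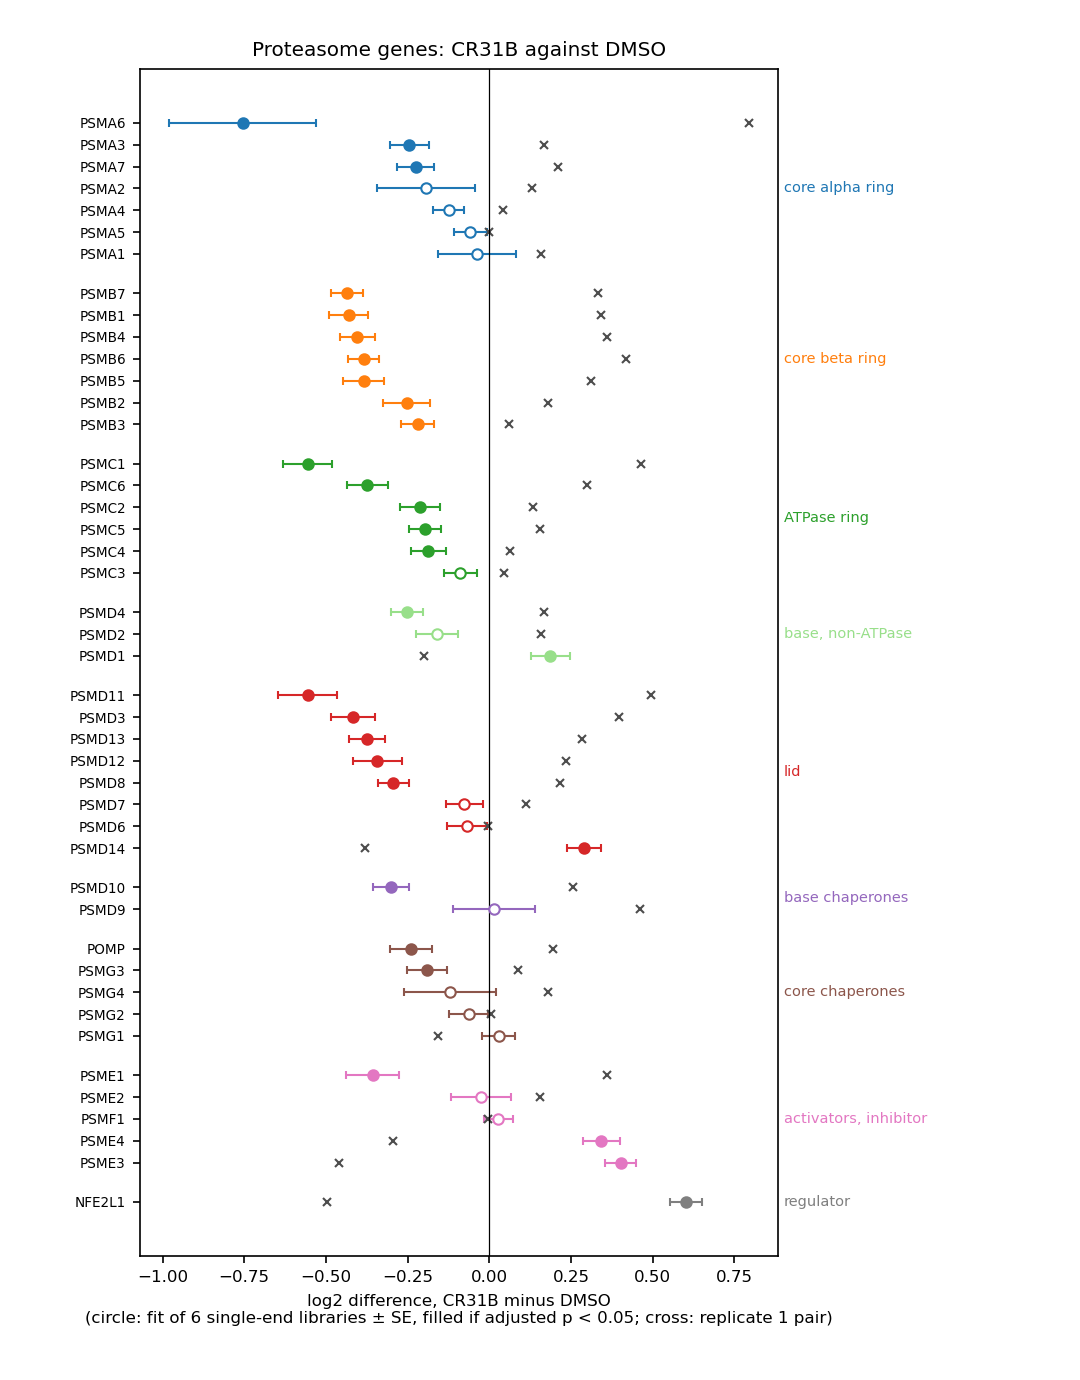
Log2 difference (CR31B minus DMSO, x axis) of each tested member (y axis, grouped by role), as the fit of the 6 single-end libraries with its standard error (circles, filled where the adjusted p was under 0.05) and as the replicate 1 pair alone (crosses). The 7 constitutive beta-ring genes lie left of 0 and their crosses lie right of 0, and NFE2L1 lies farthest to the right.

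The constitutive beta ring moved as a whole: 7 of 7 genes fell, with a median log2 difference of -0.38 and a range of -0.44 to -0.22. Among the protease subunits, PSMB5, the chymotrypsin-like site, had 177, 151 and 170 CPM in CR31B replicates 2 to 4 and 221, 208 and 221 CPM in DMSO replicates 2 to 4. Every CR31B value lay below every DMSO value, and the log2 difference was -0.38 ± 0.06 (SE, edgeR adjusted p = 0.000792). PSMB6, the caspase-like site, had 95.03, 91.0 and 92.0 CPM with CR31B and 119, 121 and 124 CPM with DMSO.

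The PSMB6 groups were tight and apart, with a log2 difference of -0.38 ± 0.05 (edgeR adjusted p = 0.000105). PSMB7, the trypsin-like site, had 122, 114 and 120 CPM with CR31B against 157, 162 and 163 CPM with DMSO, a log2 difference of -0.44 ± 0.05 (edgeR adjusted p = 6.0e-05), the lowest of the ring. So the 3 protease genes, on chromosome 14 (PSMB5, 23016543 to 23035230), chromosome 17 (PSMB6, 4796144 to 4798503) and chromosome 9 (PSMB7, 124353466 to 124415444; GRCh38, GENCODE 29), had log2 differences between -0.44 and -0.38. Of the structural beta subunits, PSMB1 fell from 222 to 165 CPM and PSMB4 from 321 to 242 CPM in the group means. PSMB2 (-0.25) and PSMB3 (-0.22) had the smallest log2 differences of the ring, and PSMB3 did not pass with offsets for GC content and transcript length (-0.07, edgeR adjusted p = 0.42). Summed over the ring, the level was 1096 ± 69.5 CPM with CR31B and 1411 ± 23.1 CPM with DMSO (SD, n = 3), a change of -22.3%. The order was opposite in replicate 1, with 1405 CPM in the library labelled CR31B and 1147 CPM in the library labelled DMSO.

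In the alpha ring 3 of 7 tested genes fell and 4 did not pass, with a median log2 difference of -0.19. That median is the value of PSMA2, and the 3 include PSMA6, both poorly counted as described below. PSMA3 had 108, 94.2 and 107 CPM with CR31B and 124, 120 and 122 CPM with DMSO, so the groups did not overlap (log2 difference -0.25 ± 0.06, edgeR adjusted p = 0.00749). PSMA7 had 282, 249 and 261 CPM against 308, 301 and 318 CPM (-0.23 ± 0.06, edgeR adjusted p = 0.00922), and did not pass with GC and length offsets (-0.09, edgeR adjusted p = 0.275). PSMA4 had 326, 309 and 324 CPM against 344, 350 and 353 CPM, and passed with the replicate number as a block (edgeR adjusted p = 0.058 without it and 0.0185 with it), and PSMA5 had a log2 difference of -0.06. With GC and length offsets PSMA4 (-0.25, edgeR adjusted p = 0.00319) and PSMA5 (-0.17, edgeR adjusted p = 0.0245) passed as lower.

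The other alpha genes were poorly counted. In GENCODE 29, PSMA1, PSMA2 and PSMA6 share 88.6%, 97.1% and 70.4% of their coding bases with another gene on the same strand. How shared reads were counted is not given in the sources used here. Their levels were 3.76 to 4.76, 3.33 to 4.84 and 0.761 to 1.77 CPM in the single-end libraries. PSMA6, which had the largest negative log2 difference of all members, -0.75 ± 0.22, rested on 34 to 116 counts per single-end library, and its call was lost when CR31B replicate 4, DMSO replicate 3 or DMSO replicate 4 was left out (edgeR adjusted p up to 0.0808). PSMA8, the testis form, had 0 counts in all 8 libraries. The alpha sum, to which PSMA4, PSMA7, PSMA5 and PSMA3 gave nearly everything, was 855 ± 37.8 CPM with CR31B and 956 ± 15.2 CPM with DMSO.

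The beta and alpha sums, in CPM without GC and length offsets, therefore changed by different amounts. The sums were not computed with these offsets, which changed calls in both rings. Their ratio was 1.297, 1.252 and 1.296 in CR31B replicates 2 to 4 and 1.490, 1.465 and 1.473 in DMSO replicates 2 to 4. In replicate 1 it was 1.481 in the library labelled CR31B and 1.299 in the library labelled DMSO.

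**Figure D2:**
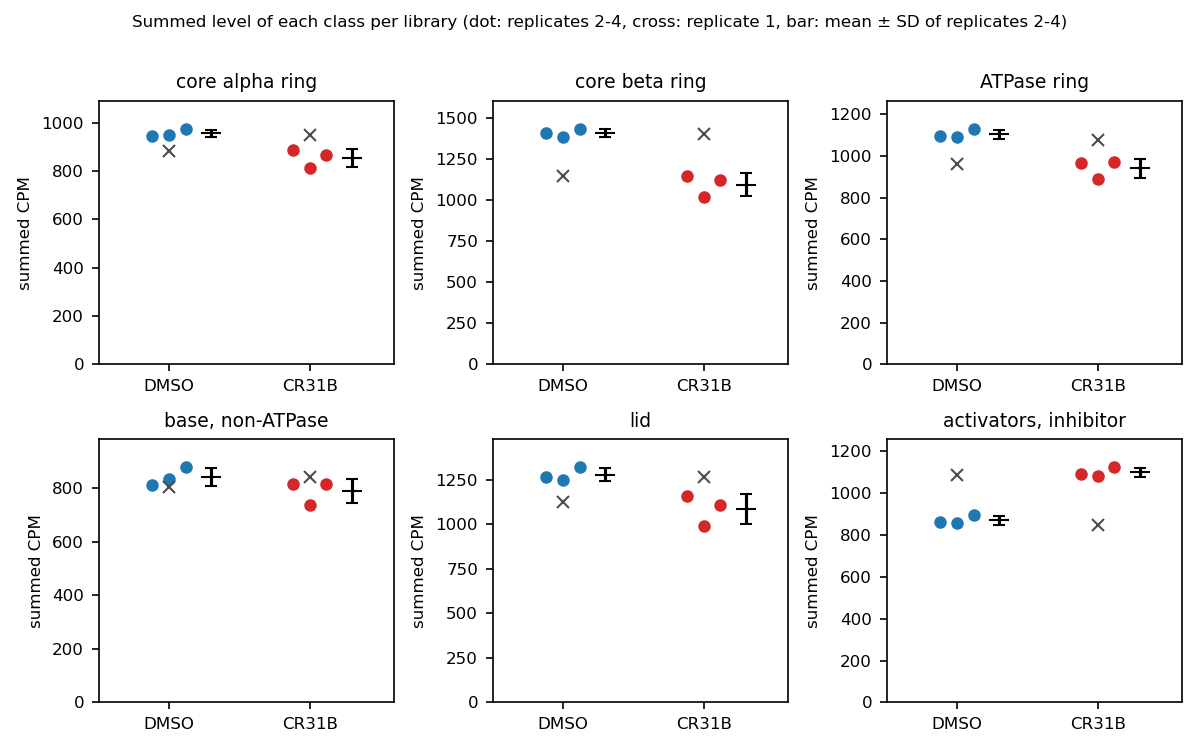
Summed CPM (y axis) of 6 classes in each library, with dots for replicates 2 to 4, crosses for replicate 1 and bars for the mean ± SD of replicates 2 to 4. The beta-ring dots sit near 1411 CPM with DMSO and near 1096 CPM with CR31B, the activator sum has the opposite order, and in these classes the crosses lie with the other group's dots.

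Of the 6 ATPases, which form the unfolding ring of the base, 5 fell and 1 did not pass, with a median log2 difference of -0.20. PSMC1 had the largest difference, with 76.6, 61.2 and 71.5 CPM with CR31B against 104, 99.8 and 104 CPM with DMSO. The groups lay well apart (log2 difference -0.56 ± 0.08, edgeR adjusted p = 0.000219). PSMC1 gave 6.88% to 7.92% of the summed ATPase CPM with CR31B and 9.16% to 9.47% with DMSO.

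Counts of PSMC1 (chromosome 14, 90256495 to 90275429) carry a limit: 75.8% of its exon bases overlap NRDE2 on the opposite strand. The name of the deposited table holds the word reverse, which would mean counting by strand, but no protocol states it. A processed copy, PSMC1P1, had at most 481 counts in a library. Among the other ATPases, PSMC6 had 126, 110 and 128 CPM with CR31B and 154, 156 and 161 CPM with DMSO (log2 difference -0.37 ± 0.06, edgeR adjusted p = 0.000962). PSMC2 (-0.21), PSMC5 (-0.20) and PSMC4 (-0.19) fell by smaller amounts. The PSMC2 call was lost without CR31B replicate 4 or DMSO replicate 4 (edgeR adjusted p up to 0.0703), and the PSMC4 call with GC and length offsets (0.231). PSMC3 had 206, 194 and 205 CPM against 216, 208 and 222 CPM and did not pass (log2 difference -0.09, edgeR adjusted p = 0.184). So within the ring the log2 differences ran from -0.56 to -0.09.

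The 3 other base genes did not share a direction. PSMD4, a ubiquitin receptor, had 227, 221 and 236 CPM with CR31B and 264, 274 and 278 CPM with DMSO. Its log2 difference was -0.25 ± 0.05 (edgeR adjusted p = 0.00208), and it did not pass with GC and length offsets (0.0647). PSMD1, a scaffold subunit, had 255, 224 and 250 CPM with CR31B and 205, 213 and 222 CPM with DMSO, higher in 3 of 3 single-end pairs.

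The PSMD1 difference was small (log2 0.19 ± 0.06, edgeR adjusted p = 0.0306) and lost its call in 8 of 16 alternatives, among them upper quartile and total count scaling, with log2 values between 0.09 and 0.24. PSMD2, the other large scaffold, had 335, 293 and 330 CPM against 344, 349 and 378 CPM and passed with the replicate block (edgeR adjusted p = 0.0684 without it and 0.0131 with it).

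In the lid, which carries the deubiquitinase PSMD14, 5 of 8 genes fell, 1 rose and 2 did not pass, with a median log2 difference of -0.32. PSMD11, a scaffold subunit on chromosome 17 (32444261 to 32483318), had 178, 133 and 153 CPM with CR31B and 232, 216 and 236 CPM with DMSO. These values did not overlap (log2 difference -0.56 ± 0.09, edgeR adjusted p = 0.000734), and CR31B replicate 3 was the lowest. PSMD3 had 145, 121 and 139 CPM against 175, 177 and 189 CPM (-0.42 ± 0.07, edgeR adjusted p = 0.00078).

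PSMD13, another scaffold of the lid, had 53.6, 48.8 and 53.6 CPM with CR31B and 66.4, 68.4 and 67.8 CPM with DMSO (log2 difference -0.37 ± 0.05, edgeR adjusted p = 0.000347). PSMD12 (-0.34) and PSMD8 (-0.29) fell as well. PSMD6 (-0.07) and PSMD7 (-0.08) did not pass. PSMD14 went the other way. It had 226, 210 and 226 CPM with CR31B and 176, 178 and 188 CPM with DMSO, a log2 difference of 0.29 ± 0.05 (edgeR adjusted p = 0.00148). The 3 CR31B values exceeded the 3 DMSO values, although with GC and length offsets the log2 difference was 0.13 and did not pass (edgeR adjusted p = 0.0686). As a share of the summed lid CPM, PSMD14 took 19.5%, 21.2% and 20.4% with CR31B and 13.9%, 14.3% and 14.3% with DMSO. The replicate 1 libraries had 13.97% (labelled CR31B) and 20.4% (labelled DMSO).

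**Figure D3:**
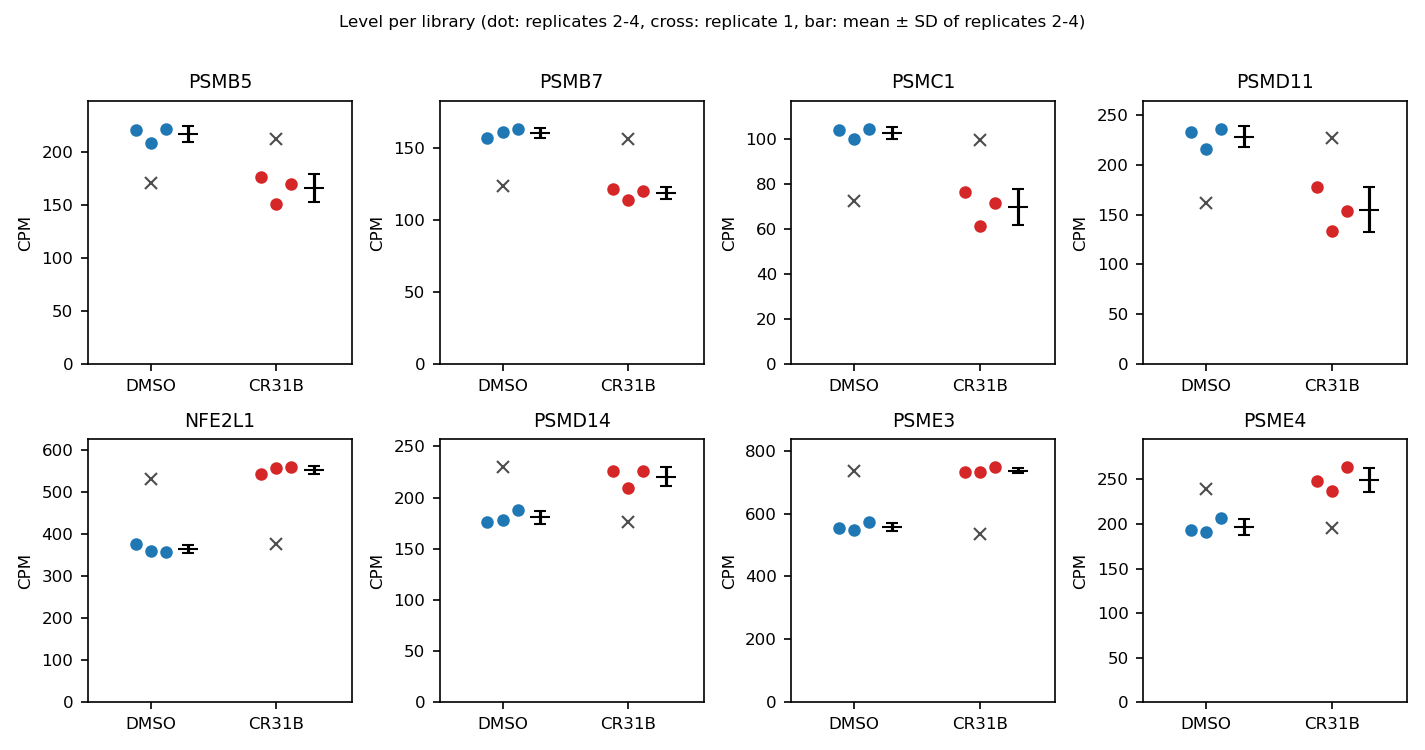
CPM per library (y axis, from 0) of 4 members that fell (PSMB5, PSMB7, PSMC1, PSMD11) and 4 that rose (NFE2L1, PSMD14, PSME3, PSME4), with dots for replicates 2 to 4, crosses for replicate 1 and bars for the mean ± SD of replicates 2 to 4. In each panel the dots of the groups do not overlap and the crosses have the opposite order.

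Over the 31 genes of the constitutive particle, 2 rose, 21 fell and 8 did not pass, with a median log2 difference of -0.25. Their summed level was 4769 ± 281 CPM with CR31B and 5592 ± 123 CPM with DMSO (SD, n = 3), a change of -14.7%. By class the sums changed by -22.3% in the beta ring, -10.6% in the alpha ring, -14.8% in the ATPases, -6.22% in the other base genes and -15.0% in the lid. The ratio of the core sum to the regulatory particle sum was 0.687 to 0.699 in the single-end CR31B libraries and 0.724 to 0.742 in the single-end DMSO libraries. Differences between classes were not tested.

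Of the assembly factors, 2 of 5 core chaperones and 1 of 2 tested base chaperones fell and none rose. Among all tested genes 41.3% were called, 17.6% lower and 23.8% higher. POMP, which guides the last step of core assembly, had 121, 106 and 113 CPM with CR31B and 143, 126 and 134 CPM with DMSO (log2 difference -0.24 ± 0.06, edgeR adjusted p = 0.0126), and its call was lost without DMSO replicate 2 (0.0539). PSMG3, an alpha-ring chaperone, had 45.7, 40.7 and 40.5 CPM against 48.6, 47.5 and 49.0 CPM (-0.19 ± 0.06, edgeR adjusted p = 0.0272) and lost its call in 6 of 16 alternatives (edgeR adjusted p up to 0.256). Its partners PSMG1 (0.03), PSMG2 (-0.06) and PSMG4 (-0.12) did not pass, and the log2 difference of PSMG1 turned negative with upper quartile and total count scaling. Among the chaperones of the base, PSMD10 had 31.4, 32.0 and 31.0 CPM with CR31B and 38.0, 40.4 and 38.2 CPM with DMSO, again without overlap (-0.30 ± 0.05, edgeR adjusted p = 0.00145). PSMD9 had 2.33 to 2.59 CPM in both groups' single-end libraries and shares 58.7% of its coding bases with another gene. PSMD5 had 0 to 2 counts per library and was not tested.

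The activators, which can cap the core in place of the regulatory particle, split by family member. PSME3, which forms the nuclear cap, had 731, 731 and 746 CPM with CR31B and 553, 548 and 573 CPM with DMSO. The CR31B libraries were all higher (log2 difference 0.40 ± 0.05, edgeR adjusted p = 9.74e-05). PSME4, a large single-chain activator, had 248, 237 and 263 CPM against 193, 191 and 207 CPM (0.34 ± 0.06, edgeR adjusted p = 0.000835). With GC and length offsets the log2 difference of PSME4 was 0.14 and did not pass (edgeR adjusted p = 0.0723), while PSME3 passed in 16 of 16 alternatives.

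PSME1 and PSME2 together form the interferon-inducible cap. PSME1 had 12.98, 11.1 and 12.8 CPM with CR31B and 16.0, 15.5 and 15.8 CPM with DMSO (log2 difference -0.36 ± 0.08, edgeR adjusted p = 0.00563), and did not pass with GC and length offsets (0.0553). PSME2 had 21.4, 26.5 and 23.2 CPM against 22.7, 26.5 and 23.3 CPM, which overlap. PSMF1, a core inhibitor, had 76.98 to 79.1 CPM with CR31B and 76.4 to 76.9 CPM with DMSO (log2 0.03, edgeR adjusted p = 0.663), and its sign was negative with upper quartile and total count scaling. The sum over these 5 genes, most of it from PSME3, was 1099 ± 21.1 CPM with CR31B and 871 ± 20.8 CPM with DMSO.

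NFE2L1 (chromosome 17, 48048329 to 48061487) had the largest positive difference of the members. It had 542, 558 and 558 CPM with CR31B and 376, 360 and 357 CPM with DMSO, a 1.52-fold difference (log2 0.60 ± 0.05, edgeR adjusted p = 7.49e-06). The groups were far apart relative to their spread (SD 9.44 and 10.6 CPM, n = 3), and the call held in 16 of 16 alternatives, with log2 values of 0.51 to 0.63. NFE2L1 RNA was thus higher in the same libraries in which 21 of the 31 particle genes fell. The counts measure RNA only, and the cleavage and location of the NFE2L1 protein were not measured.

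The immune and thymic beta subunits, which replace PSMB5, PSMB6 and PSMB7 in antigen-presenting or interferon-treated cells and in the thymus, were near or at 0. PSMB8, PSMB9 and PSMB11 had 0 counts in all 8 libraries, which allows up to 0.0444 to 0.0718 CPM per library (3 counts, counting error only). PSMB10 had 0 to 6 counts per library and shares 58.3% of its coding bases. PSMB8 and PSMB9 lie next to TAP1 and TAP2 on chromosome 6, which had 0 to 1 and 0 to 2 counts. Genes farther along the same region were well counted, with 15742 to 33609 counts for BRD2 and 2514 to 5074 for RNF5. No fold change was computed for the immune subunits.

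Levels between genes were compared per kb of exon in the single-end DMSO libraries. PSMA7 was highest at 177 ± 4.69 CPM per kb, followed by PSMB4 at 149 ± 2.05, PSMB5 at 123 ± 4.18 and PSME3 at 108 ± 2.54 (SD, n = 3), and these did not overlap in their spread. PSMB1, PSMC3 and POMP followed between 94.1 and 98.5 CPM per kb, and the level of POMP (SD 5.65) was within the spread of its neighbours. The 7 constitutive beta genes ranged from 54.1 to 149 CPM per kb, the ATPases from 16.7 (PSMC1) to 94.4 (PSMC3), and the lid from 10.6 (PSMD6) to 59.0 (PSMD12). Subunits of 1 complex thus differed several-fold in RNA level, with the exon length of all transcripts as the divisor. The order depends on the divisor: per kb of the longest transcript PSMA7 was again first (302), but PSMD4 was second at 201 (89.8 by exon length), ahead of PSMB5 (167), PSME3 (166), PSMB7 (164) and PSMB4 (155), and PSMC5 (144) was the highest ATPase. PSME3 stood above PSME1 (8.85) and PSME2 (6.75). Of the tested members without a largely shared coding sequence PSMG4 was lowest at 1.11 CPM per kb.

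**Figure D4:**
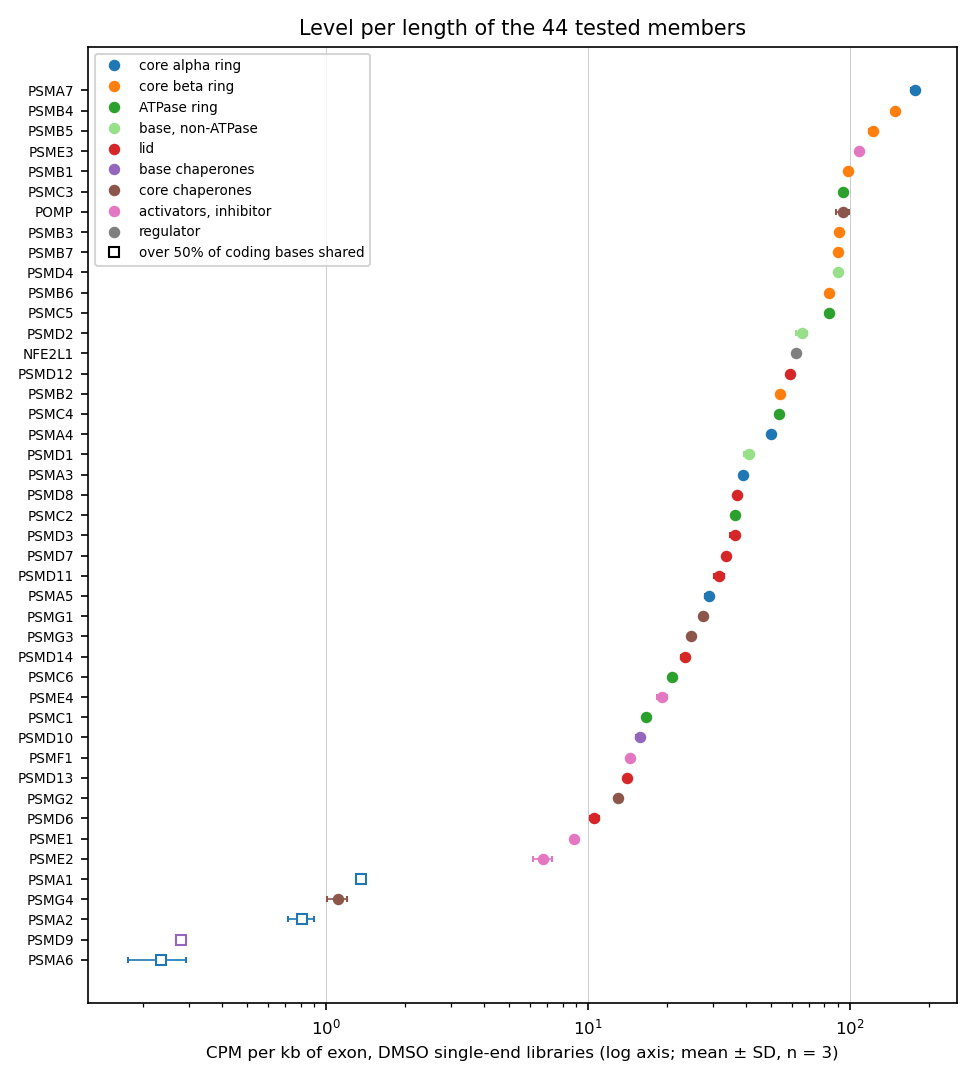
Level of the 44 tested members in the single-end DMSO libraries (x axis, CPM per kb of exon, log axis; mean ± SD, n = 3), ordered from high to low and coloured by role, with open squares for genes that share over 50% of their coding bases. PSMA7 leads at 177, the beta-ring genes lie between 54.1 and 149, and 4 of the 5 lowest genes are open squares.

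The replicate 1 pair had the opposite sign for 30 of the 30 called members. This was not particular to the members: 31 called genes of the wider ubiquitin-proteasome pathway had it too. The share over all called genes was not computed. In the beta ring the median log2 difference was 0.33 in replicate 1 and -0.32, -0.46 and -0.42 in replicates 2, 3 and 4. NFE2L1 had 376 CPM in the library labelled CR31B replicate 1 and 531 CPM in the library labelled DMSO replicate 1. PSMB7 had 156 and 124 CPM, PSMC1 99.8 and 72.3 CPM, and PSMD14 176 and 230 CPM in the same order.

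Each of these replicate 1 values lay near the single-end values of the other label. The treatment by layout interaction was called for 28 of 44 members, beside 42.5% of all tested genes, and those 28 are all among the 30 called members, without PSMC4 and PSMG3. For NFE2L1 the interaction was -1.10 ± 0.10 on the log2 scale (edgeR adjusted p = 1.33e-05) and for PSMB6 0.80 ± 0.09 (edgeR adjusted p = 7.89e-05). With 1 paired-end library per group, this pair has no replicate check of its own, and layout and whatever else sets replicate 1 apart cannot be told apart. Fitted over all 8 libraries as labelled, NFE2L1 had a log2 difference of 0.33 ± 0.18 and PSMB7 -0.25 ± 0.13 (edgeR adjusted p = 0.707 for each).

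Other genes of the ubiquitin-proteasome pathway moved in both directions. In 4 lists, 50 of 54 genes were tested, and 15 rose and 16 fell in the single-end libraries, beside 23.8% of all tested genes higher and 17.6% lower. Among factors that process or partner NFE2L1, 4 of 14 rose and 3 fell, near these shares. DDI2, the protease that cuts NFE2L1, had 69.6, 71.2 and 74.7 CPM with CR31B and 44.4, 44.1 and 47.1 CPM with DMSO (log2 0.67 ± 0.05, edgeR adjusted p = 7.04e-06). NFE2L2, its stress-responsive paralogue, rose as well (0.65), and the NFE2L1-processing enzyme NGLY1 had a log2 difference of -0.13 that did not pass. NFE2L3 (-0.59) and the glycosyltransferase OGT (-0.40) fell.

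Among proteins that bind the proteasome, 5 of 13 rose and 6 fell. AKIRIN2, an adaptor for the nuclear import of proteasomes, had 129, 136 and 138 CPM with CR31B and 83.9, 78.8 and 86.0 CPM with DMSO, without overlap (log2 0.70 ± 0.05, edgeR adjusted p = 5.59e-06). MIDN, which brings substrates to the proteasome, rose (0.58), while ZFAND2A, a stress-inducible partner at 3.52 to 7.76 CPM, fell (-0.87). The ubiquitin receptor ADRM1 fell (-0.39), though not without DMSO replicate 4 (edgeR adjusted p = 0.0504). Of 16 ubiquitin genes, E1 enzymes, shuttles and VCP cofactors, 3 rose and 7 fell.

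The cofactor NSFL1C fell (-0.48), and the shuttle UBQLN2 (0.58) and the E1 enzyme UBA1 (0.30) rose. In the antigen presentation list 7 of 11 genes were tested, 3 rose and 0 fell. IRF1, an interferon-response transcription factor with at most 3.07 CPM, had a log2 difference of 0.55 and lost its call in 3 of 16 alternatives. With the replicate block, 19 pathway genes rose and 20 fell, beside 28.1% and 23.1% of all tested genes.

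**Figure D5:**
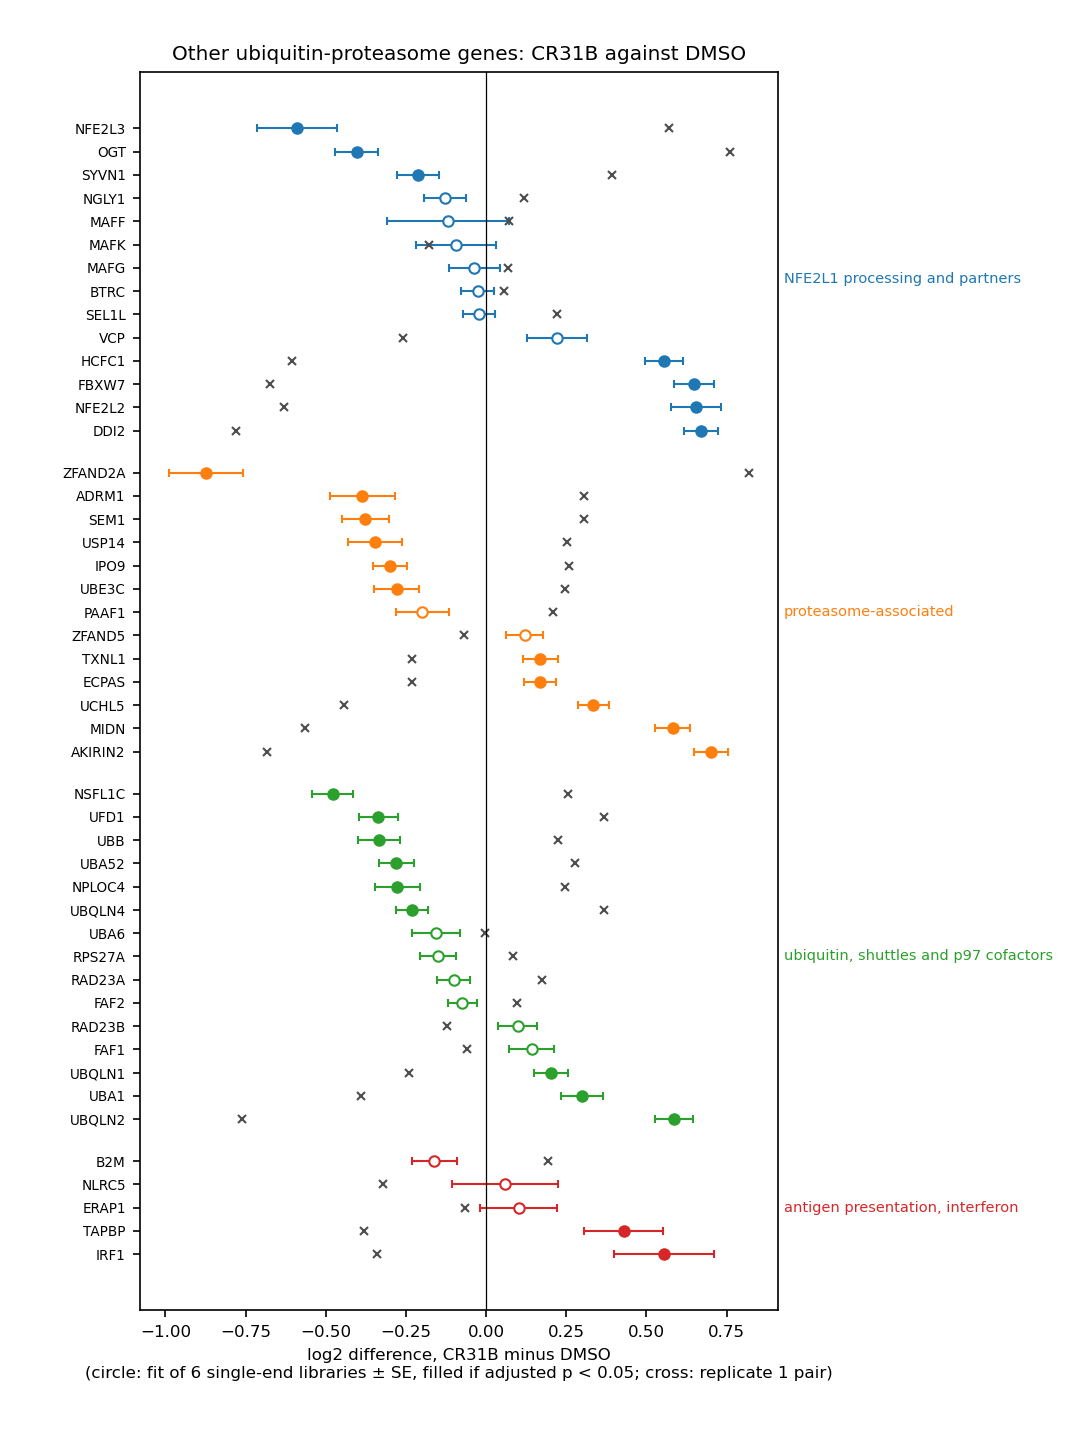
Log2 difference (CR31B minus DMSO, x axis) of 47 tested pathway genes outside the members (y axis, grouped by list), as the fit of the 6 single-end libraries with its standard error (circles, filled where the adjusted p was under 0.05) and as the replicate 1 pair alone (crosses). AKIRIN2 and DDI2 lie near 0.7 on the right, ZFAND2A lies at -0.87 on the left, and filled circles have their crosses on the other side of 0.

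Because NFE2L1 and its relatives bind the antioxidant response element, promoter windows of the members were searched for its core, TGACNNNGC, on both strands. RefSeq windows (GRCh38.p14) from 250 bases before the start site were at hand for 44 of the 50 members, as 54 windows of 300 bases. The core was present in 15 of these windows (27.8%) and in 13.8% of 22199 windows of protein-coding genes. The longer form TGACTCAGC, which is a case of the core, was in 0% of the member windows and in 0.491% of all windows. The NF-Y box CCAAT was in 38.9% against 34.7%, and the GC box GGGCGG in 68.5% against 56.3%.

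Members with the core did not share a direction. PSMB3, PSMC4, PSMC5, PSMD3, PSMD12 and PSME1 fell, PSMD1 and PSME4 rose, PSMA4, PSMD9, PSMG1, PSMG2 and PSME2 did not pass, and PSMB9 and PSMD5 were not tested. Stretches upstream of 5 called members are printed on the gene's strand to show matches in genes of both directions, with the core in capitals. They cover chr17:38752587-38752695 (plus strand), chr17:39980720-39980796 (plus), chr17:67366684-67366792 (minus), chr14:24136058-24136157 (plus) and chr2:53970994-53971077 (minus), and in PSME4 the core is on the opposite strand.
PSMB3: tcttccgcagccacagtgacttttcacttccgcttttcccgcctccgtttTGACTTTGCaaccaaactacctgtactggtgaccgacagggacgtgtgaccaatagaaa
PSMD3: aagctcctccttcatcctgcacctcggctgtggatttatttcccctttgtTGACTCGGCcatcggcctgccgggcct
PSMD12: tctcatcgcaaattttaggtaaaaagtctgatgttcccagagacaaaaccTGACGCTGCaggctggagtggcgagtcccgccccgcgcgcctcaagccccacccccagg
PSME1: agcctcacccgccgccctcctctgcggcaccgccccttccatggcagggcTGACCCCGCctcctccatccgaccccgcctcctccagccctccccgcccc
PSME4: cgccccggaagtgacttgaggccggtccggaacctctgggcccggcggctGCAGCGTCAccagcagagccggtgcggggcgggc
The core begins at positions -104 in PSMB3, -37 in PSMD3, -165 in PSMD12, -86 in PSME1 and -34 in PSME4, counted from the RefSeq start site. PSMB3 (log2 -0.22), PSMD3 (-0.42), PSMD12 (-0.34) and PSME1 (-0.36) fell, and PSME4 (0.34) rose. A match describes the letters only, and no binding was measured.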

How the data were processed

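RNA was counted per Ensembl gene in 8 IMR32 libraries, 4 labelled CR31B and 4 labelled DMSO. The authors deposited raw counts, not normalised. FastQC 0.11.7, STAR 2.7.2b, edgeR 3.36.0, limma 3.50.3 and build GRCh38 are named per the submitters' processing notes. The name of the deposited table holds the word reverse, which would mean reverse-strand counting, but no protocol states a strand setting. The counting tool and annotation are not given in the sources used here. Per the labels' protocols, 250 ng of RNA and 15 PCR cycles were used, and no molecular identifiers are described, so intervals and floors cover counting error only. Of 58787 identifiers, 58515 were in GENCODE release 29, the source of coordinates and exon lengths.

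The test was the quasi-likelihood test of edgeR 4.0.16, run under R 4.3.3 (filterByExpr, TMM, glmQLFit, glmQLFTest, two-sided, Benjamini-Hochberg over all tested genes, threshold 0.05). The main fit used the 6 single-end libraries. All 8 libraries as labelled, with sequencing layout as covariate, and a treatment by layout interaction were fitted beside it. CPM are normalised over 8 libraries, and for differences within a same-numbered pair 1 count was added as prior before taking log2. The main fit was chosen with earlier results of these data known, in which the replicate 1 pair ran opposite to the other pairs. The members and lists were also chosen with earlier results known. The genes named were NFE2L1, the protease subunits and their immune counterparts, up to 3 called genes per class and direction by size of the difference, the members highest and lowest per length, and up to 2 per pathway list and direction. Others are named to complete a class or for their promoters, after their values were seen. Of the pathway genes, 3 are not reported here by themselves and stay in the counts.

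Alternatives were DESeq2 1.42.0, voom in limma 3.58.1, 3 scalings (RLE, upper quartile, total count), no filter, a filter of 1 CPM, loess offsets for the GC content and length of transcripts, a replicate block, and leaving out each library. Same-numbered single-end libraries deviated together (r = 0.21, 0.38 and 0.16 for replicates 2, 3 and 4). The other combinations had r from -0.30 to 0.09. By this check from the data the numbers pair the libraries, though weakly for replicate 4. The main fit does not use this pairing, and the replicate block does. No 2 libraries agreed within sampling noise. In simulated counts for the single-end comparison (16696 genes), 100 well-counted genes were changed at each fold. Of these, 73% were recovered at 1.3-fold and 100% at 2-fold, with 9 false calls. In the data 41.3% of genes were called, so the setting differs. The rates do not cover poorly counted members such as PSMA6. Smaller differences are less surely called.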

Additional observations from a re-analysis of the deposited data

Results flagged for a closer look

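In groups of 4 libraries, the gap between the most distant library and its neighbour was taken as a share of the group's range. This share exceeded Dixon's critical value in 16 of 64 tests. Chance would give 3.2 only for genes and sums not chosen from these values. Most flagged genes were named because they were called in the single-end libraries, which favours genes with little spread there. The flagged sums hold genes also tested alone. The 16 are therefore not weighed against 3.2. In 16 of 16 the distant library was replicate 1. In the CR31B group the share was 0.909 for NFE2L1, 0.864 for PSMB6, 0.927 for PSME3, 0.873 for PSMD10, 0.853 for the summed CPM of the base chaperones and 0.858 for that of the activators and inhibitor. In the DMSO group it was 0.887 for NFE2L1, 0.852 for PSMB6, 0.840 for PSMB7, 0.868 for PSME3, 0.858 for PSMC1, 0.880 for PSMB1, 0.868 for PSMB4, 0.876 for PSMD13, 0.839 for the summed CPM of the beta ring and 0.839 for that of the activators and inhibitor.

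The difference between CR31B and DMSO itself differed between the paired-end and single-end libraries for 28 of 44 members (edgeR interaction test, adjusted p under 0.05). Of all tested genes, 42.5% were called by the same test.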

How the results depend on the processing

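Of the 44 members tested in the single-end libraries, 24 to 36 were called over the other settings tried. The 24 came with GC and length offsets, where 3352 of 16696 genes were called higher and 3306 lower. The 36 came with upper quartile scaling (3010 and 4509 of 16696). The called genes that the naming rule chose kept their sign in every setting. Members that were not called did change sign: PSMD9, PSMG1 and PSMF1 with upper quartile and total count scaling, and PSMA1, PSMC3, PSMG2 and PSMF1 with GC and length offsets. With GC and length offsets 2 members were called higher (NFE2L1 and PSME3) and 22 lower. Of the 30 calls 21 remained with these offsets and 9 were lost. The 3 gained were PSMA4, PSMA5 and PSMD6, and the cause was not tested. Leaving out 1 library gave 25 to 30 calls, with 4 to 5 higher and 20 to 25 lower. The 25 calls came without DMSO replicate 4 (3555 of 16972 genes higher and 2202 lower). The 30 came without CR31B replicate 3 (3949 and 2732 of 16807). The beta ring had 6 of 7 genes lower with GC and length offsets and without DMSO replicate 4.

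With 8 libraries as labelled, leaving out 1 library gave 0 to 30 member calls (0 to 5 higher, 0 to 25 lower). The 30 calls (5 higher, 25 lower) came without CR31B replicate 1 or without DMSO replicate 1. Without both, an alternative chosen after seeing the data, only the single-end libraries remained. That is the main fit itself, so its 30 calls (5 and 25) are the same calls and no further check. The other settings with all 8 libraries gave 0.

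Interaction calls ranged from 24 to 29, by alternatives chosen after seeing the data. Leaving out 1 library gave 25 to 33 pathway calls. The 25 came without CR31B replicate 4 (3350 of 17073 genes higher and 2232 lower), and the 33 without CR31B replicate 3 (3949 and 2732 of 16807). With the replicate block, which pairs same-numbered libraries, 5 members were higher and 27 lower (PSMA4 and PSMD2 added), it changed no other member call, and the 8-library count remained 0. Leaving out replicate 1 removes the paired-end comparison in that group, so the lone paired-end library then adds nothing to the contrast.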

Other observations

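Genes whose names resemble the members' but which the choice by symbol leaves out were looked up after the members' values were seen. PSMC3IP, a meiotic recombination factor, had 108, 94.5 and 93.2 CPM in the single-end CR31B libraries and 130, 121 and 126 CPM in the single-end DMSO libraries, so it fell (log2 -0.35 ± 0.06, edgeR adjusted p = 0.00157). PSME3IP1, a partner of PSME3, had 119 to 126 CPM with CR31B and 112 to 119 CPM with DMSO (0.08 ± 0.05, edgeR adjusted p = 0.211), while PSME3 rose. The antisense RNA PSMA3-AS1, which overlaps PSMA3, had 57.4 to 64.5 CPM against 54.7 to 58.3 CPM (0.09 ± 0.06, edgeR adjusted p = 0.243). The spans of PSMA3 and PSMA3-AS1 overlap, but 0% of the exon bases of PSMA3 overlap exons of a gene on the opposite strand. Counting over exons would therefore separate their reads without the strand. Counting over whole gene spans would need the strand. Its use is implied by the name of the deposited table, and no protocol states it. The processed copy PSMC1P1 had 4.28 to 6.42 CPM with CR31B and 7.12 to 7.94 CPM with DMSO (-0.54 ± 0.14, edgeR adjusted p = 0.0113), a log2 difference close to that of PSMC1 (-0.56). PSMG3-AS1, at 4.55 to 5.81 CPM with CR31B and 3.27 to 4.38 CPM with DMSO, rose (0.42 ± 0.15, edgeR adjusted p = 0.043), while PSMG3 fell. NFE2L1-DT (-0.35, edgeR adjusted p = 0.166) and PSMD6-AS2 (-0.32, edgeR adjusted p = 0.407) did not pass. PSMD14-DT had 0 to 1 counts per library and was not tested.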
